A study of Rattus norvegicus with 24 samples.

Results

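RNA-seq of the nucleus accumbens (NAc) of male Sprague Dawley rats was searched for the genes of the interleukin, chemokine and tumor necrosis factor (TNF) families. These were the protein-coding genes whose symbols begin with Il, Ccl, Cxcl, Ccr or Cxcr and a digit, or with Tnf. The table listed 169 such entries among 22293 protein-coding genes and 32545 genes in all. They carried 167 symbols, because Tnf and Tnfsf11 were each listed under 2 identifiers. Over all 24 libraries, 61 of the 169 reached a mean of 0.5 FPKM, where FPKM counts sequenced fragments per length of gene and per size of library. The other 108 entries lay below that level, 92 of them with at least 1 read somewhere and 16 with none in any library.

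The rats arrived at an age of 8 weeks and fell into 6 groups of 4 libraries, each labelled as a separate biological replicate. In the injection experiment, rats received 5 intraperitoneal injections of saline or of 250 µg/kg lipopolysaccharide (LPS), the bacterial cell wall component that sets off innate immunity, and later 5 daily injections of saline or of heroin at doses climbing from 1 to 5 mg/kg. Its groups were LPS-Heroin, LPS-Saline, Saline-Heroin and the control group Saline-Saline, and by the labels the tissue was taken 1 hour after the last injection. The study's methods place it instead within 1 hour of the end of a locomotor session that followed that injection. The labels place a week between LPS and heroin, and the methods give a shorter interval and a larger number of sequenced rats per group. In the self-administration experiment, rats with jugular catheters took saline (Saline-SA) or heroin at 0.075 mg/kg/infusion (Heroin-SA) intravenously during 10 daily sessions of 6 hours and were killed immediately after the last. No rat of the self-administration experiment received LPS.

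Cytokines are secreted signals of immune and other cells. Interleukins act through paired receptor chains that signal mainly by JAK kinases and STAT factors or, for the IL-1 family, by Myd88. Chemokines act through receptors coupled to G proteins and steer the movement of cells, and TNF ligands act through TNF receptors and their Traf adaptors. In the brain, microglia are a main source of the inflammatory cytokines after LPS, while several members of these families are made by neurons, astrocytes and vessels in health.

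Each library held 12312878 to 18850240 reads assigned to genes. Members of the 3 families took 0.0805% to 0.0932% of them, 10064 to 16026 reads. The 14 microglial markers were all listed, 13 of them above 0.5 FPKM, and their summed level was 211 to 313 FPKM in every library. Markers of medium spiny neurons, the main NAc neurons, summed to 1279 to 3358 FPKM, and those of cortical glutamatergic neurons to 45.3 to 440. Of the 15 listed symbols of blood leukocytes, 5 reached 0.5 FPKM, the neutrophil genes S100a8 and S100a9 among them, the T-cell genes Cd3d, Cd3e, Cd3g and Cd8a lay below it, and the list summed to at least 6.71 FPKM in every library. Some libraries stood apart. The choroid plexus list summed to 375 FPKM in Saline-Saline replicate 1 and to at most 58.7 elsewhere. The leukocyte list reached 23.1 FPKM in Saline-SA replicate 4. The red blood cell list reached 4649 FPKM in that library, 3080 in Heroin-SA replicate 4, 1743 in Saline-Heroin replicate 2 and 1160 in LPS-Saline replicate 4, and the fibroblast and mural list 166 and 163 FPKM in the last 2 of these. In addition, mitochondrial reads made up 15.9% and 14.1% of Saline-SA replicates 3 and 4 against 6.82% to 11.8% of the rest. In bulk tissue, fewer cells of a type and less RNA per cell cannot be told apart.

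The members expressed in the NAc were led by a few constitutive genes. Cxcl14, a chemokine present in many tissues at rest, was the highest at a mean of 66.9 FPKM, above 91.3% of all genes that reached 0.5 FPKM. Ccl27, the ligand of Ccr10, followed at 40.0 FPKM, and Il34, the ligand that sustains microglia through the Csf1 receptor, at 34.6 FPKM. These 3 genes made up 36.0% of the summed level of the families. Next came Tnfaip1 (17.5 FPKM), an adaptor of a ubiquitin ligase, Tnfrsf21 (16.3 FPKM), also known as death receptor 6, and Il6st (15.0 FPKM), the gp130 chain shared by receptors of the IL-6 family. Il11ra1, the IL-11 receptor, stood at 12.9 FPKM, Cxcl12, the ligand of Cxcr4, at 11.8, Il18bp, which binds and blocks IL-18, at 10.6, and Il17d, a ligand of the IL-17 family, at 9.63. Ccl27 and Il11ra1 overlap on opposite strands, and as the counting is not stated to use the strand, reads of the pair cannot be told apart with certainty. The median of the 61 was 2.80 FPKM against 10.8 FPKM for protein-coding genes that reached the same minimum. A share of 36.1% of the listed members reached it, compared with 62.1% of listed protein-coding genes.

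By role, 10 of 37 interleukin ligands and 15 of 36 interleukin receptors reached 0.5 FPKM. Among chemokines these were 9 of 32 ligands but 2 of 17 receptors, among them Cxcr4 at 0.839 FPKM. Ccr2, the receptor of Ccl2, had 0 reads in all 24 libraries. Of the TNF family, 5 of 14 ligands, 8 of 17 receptors and 8 of 8 genes named as TNF-induced proteins reached the minimum. The decoys and antagonists did so in 3 of 7 cases. Just inside the limit were Tnfsf15 (0.599 FPKM), Il17rd (0.561) and Cxcl13 (0.536), and just outside were Ccr10 (0.452), Il21 (0.429) and Il2 (0.414). A mean of at least 10 reads per library lay behind 55 of the 61, and at least 100 reads behind 27.

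Across the 6 groups, the highest group mean of the 10 leading members was between 1.09 times (Tnfaip1) and 1.83 times (Il6st) the lowest. Tnfaip1 ran from a group mean in FPKM of 16.8 ± 0.455 in Saline-Saline to 18.3 ± 1.79 in Heroin-SA (SD, n = 4 each, as in what follows). Cxcl14 lay between 61.1 ± 13.9 in LPS-Saline and 73.1 ± 8.52 in Heroin-SA, and Ccl27 between 37.0 ± 2.06 in Saline-Heroin and 41.6 ± 3.54 in Heroin-SA. In these 3 genes most groups lay within the spread of one another. Il34 was highest in self-administration, at 42.8 ± 5.63 in Heroin-SA and 39.0 ± 2.60 in Saline-SA. The LPS-Heroin rats had 32.8 ± 2.64 of it and the Saline-Heroin rats 32.8 ± 3.18, followed by LPS-Saline at 31.5 ± 5.24 and Saline-Saline at 28.6 ± 2.23. Within either experiment these groups lay mostly within their spread. Il6st was lowest in self-administration, at 10.1 ± 0.922 in Saline-SA, and highest at 18.5 ± 2.96 in LPS-Saline.

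Among the other interleukin ligands, the alarmin Il33 had group means of 8.10 to 9.63 FPKM, the inflammasome product Il18 2.52 to 4.04, and Il15, which sustains natural killer cells, 1.38 to 3.30. Il12a and Il23a, subunits of IL-12 family cytokines, had 2.37 to 3.32 and 1.17 to 2.06, while Il12b, the chain they share as IL-12 and IL-23, had a single read in all. Of the chemokine ligands, Ccl19 and Cxcl16 were highest in the same 2 libraries, LPS-Saline replicate 4, with 2.96 and 5.45 FPKM, and Saline-Heroin replicate 3, with 3.12 and 4.61. Cxcl13 was highest in LPS-Saline replicate 4 as well, at 1.92 FPKM, and it exceeded 1 FPKM in 4 more, with up to 1.56 in LPS-Heroin replicates 3 and 4, 1.17 in Saline-SA replicate 4 and 1.15 in Saline-Heroin replicate 2. In LPS-Saline replicate 4 the fibroblast and mural markers summed to 163 FPKM against 47.0 to 77.6 in the rest of its group, those of perivascular macrophages to 4.70 against 1.40 to 1.93 and those of red blood cells to 1160 against 335 to 441. In Saline-Heroin replicate 3 the same lists summed to 91.6, 4.69 and 807 FPKM. The Saline-Heroin group ran from 91.6 to 166, from 1.60 to 4.95 and from 447 to 1743, each highest in replicate 2. Of the 5 listed symbols of perivascular macrophages, 2 reached 0.5 FPKM, and Cd163, F13a1 and Siglec1 lay below it. The part of all these marker lists in the chemokine levels was not tested. The TNF ligands Tnfsf12 (TWEAK) and Tnfsf13 (APRIL) had group means of 6.04 to 10.4 and 5.46 to 7.43, and the receptor Tnfrsf11a (RANK) 6.08 to 8.02.

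**Figure D1:**
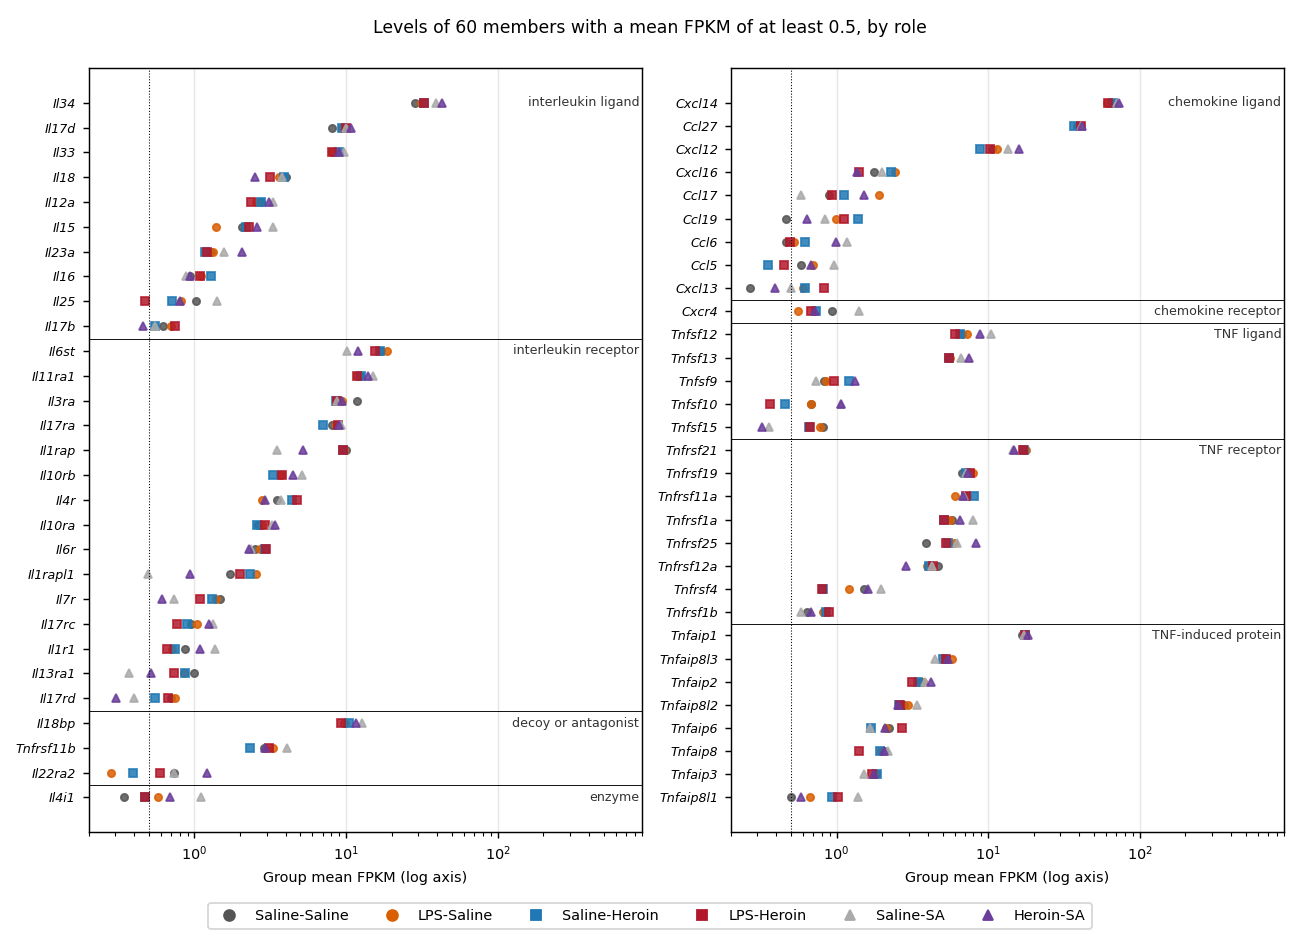
Group means (4 libraries each) of 60 of the 61 members on a logarithmic FPKM axis, ordered by role and level; the dotted line marks 0.5 FPKM. Cxcl14, Ccl27 and Il34 lie to the right of all others in every group, and the self-administration groups (triangles) sit apart from the injection groups for Il1rap and Il1rapl1.

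The question of LPS history was put first to the genes that define an acute LPS response. A list of 16 symbols was taken from general knowledge, and 13 of the 16 were below 0.5 FPKM. Il1b, the main secreted IL-1, had 0 to 2 reads in the 8 libraries with LPS and 0 to 3 in the 8 without. Il6 had 1 to 5 reads with LPS, 24 in sum, and 0 to 5 without, 14 in sum. Tnf had 2 reads with LPS, both in 1 library, and 0 without under its more covered identifier. Il10, the main anti-inflammatory interleukin, had 0 reads in all 24 libraries, and Il12b had 1 read in all. Ccl2, which recruits monocytes, had 0 to 7 reads with LPS, 21 in sum, against 0 to 3 without, 7 in sum. The reads of Ccl3 summed to 16 with LPS and 17 without, those of Ccl4 to 9 and 11, those of Cxcl1 to 2 and 3, and those of Cxcl2 to 1 and 3. Il1a summed to 35 and 27 reads, and Il1rn, the receptor antagonist of IL-1, to 58 and 47. At this depth, 3 reads are 1.59e-05% to 2.44e-05% of a library, and most libraries were at or below 3 reads for most of these genes.

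The promoters of several of these genes carry the binding consensus of NF-κB, the factor that LPS activates. Windows around it are shown for 3 genes that were low here and for Tnfaip3, which was not. They were read from RefSeq promoters of build GRCr8, 5′ to 3′ on the strand of the gene and upstream of its start, with matches on either strand in capitals.
Il6 (chr4:5894614-5894663, minus strand): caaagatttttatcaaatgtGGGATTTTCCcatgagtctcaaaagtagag
Cxcl1 (chr14:17479375-17479425, minus strand): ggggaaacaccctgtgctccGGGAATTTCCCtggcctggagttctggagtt
Cxcl10 (chr14:15988859-15988968, plus strand): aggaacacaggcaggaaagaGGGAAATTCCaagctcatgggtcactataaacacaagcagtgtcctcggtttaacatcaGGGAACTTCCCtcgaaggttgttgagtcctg
Tnfaip3 (chr1:15544005-15544169, minus strand): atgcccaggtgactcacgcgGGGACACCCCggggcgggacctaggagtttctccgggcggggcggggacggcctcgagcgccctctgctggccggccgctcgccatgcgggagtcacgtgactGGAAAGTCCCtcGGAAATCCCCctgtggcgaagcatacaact
A match within 250 bases before the start was held by 5 of the 10 promoters found for the 16 genes, Tnfaip3, Il6, Cxcl10, Cxcl2 and Cxcl1. It was held by 24 of the 136 promoters found for 129 of the 167 member symbols, 17.6%, and by 6.33% of all 33469 promoters of the table. The match describes the letters only, and overlapping matches on both strands, as in Cxcl1, form 1 run.

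The exact permutation test was run on the 14 entries with a read in any of the 16 injection libraries, with LPS labels exchanged within the saline and within the heroin arm, two-sided and unadjusted. Of these, 1 passed 0.05, 7.14%. By limma-trend, an unadjusted p under 0.05 was met by 6.66% of the 15118 genes with a mean of at least 0.5 FPKM. Without that minimum it was met by 1346 of 22782 genes. Most of the 14 entries lay below the minimum and the tests differ, so neither is a like set. The entry that passed was Cxcl10, an interferon-induced chemokine that attracts T cells. In reads, Cxcl10 had 17, 5, 4 and 8 in Saline-Saline and 2, 2, 0 and 4 in LPS-Saline. It had 1, 6, 15 and 4 in Saline-Heroin and 0, 0, 7 and 3 in LPS-Heroin. The level was lower with LPS, at 0.138 ± 0.152 FPKM against 0.437 ± 0.310 (SD, n = 8 each), a difference of -1.21 on the log2(FPKM + 0.1) scale (exact permutation p = 0.0224). Cxcl10 overlaps Art3 on the other strand. The 8 libraries with LPS overlapped the 8 without, and the call was lost without LPS-Heroin replicate 1 or without LPS-Heroin replicate 2. The remaining 13 had exact p-values of 0.0755 or more, the lowest for Il6, at +0.56 log2 with LPS.

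Of the 3 listed genes with a level above 0.5 FPKM, Tnfaip3, the A20 brake on NF-κB signaling, had 1.76 ± 0.349 FPKM with LPS and 1.83 ± 0.240 without (SD, n = 8 each, exact permutation p = 0.553). Tnfaip6, a hyaluronan-binding protein that inflammation induces, had 2.40 ± 0.769 and 1.96 ± 0.746 (exact permutation p = 0.245). Ccl5, a chemokine of T cells, had 0.576 ± 0.258 and 0.467 ± 0.292 (exact permutation p = 0.364) on 0 to 8 reads per library. None of the 3 passed the exact test.

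**Figure D2:**
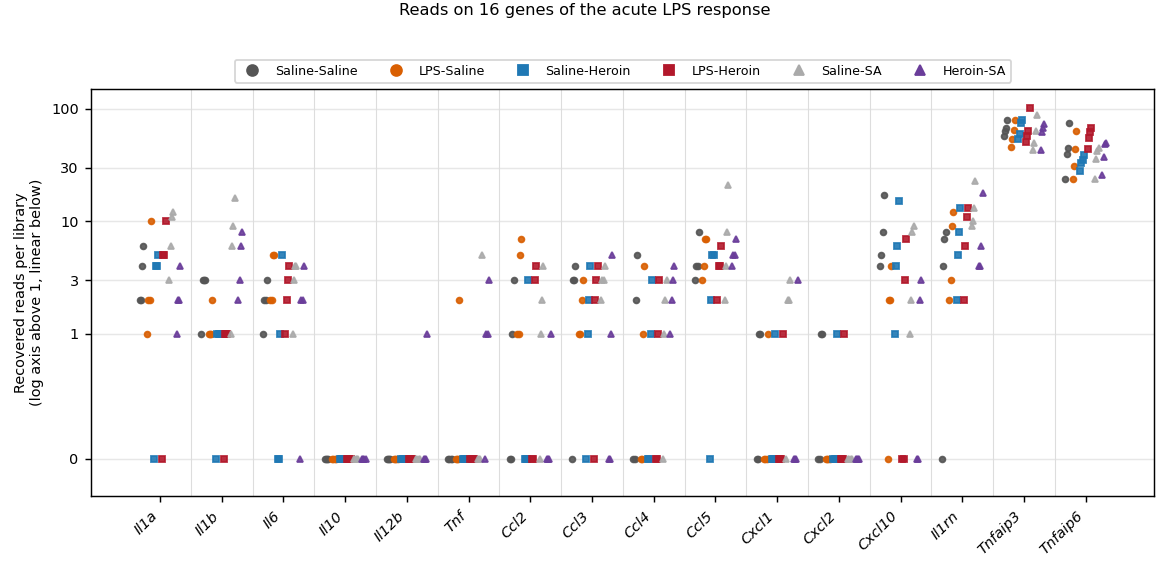
Recovered reads per library (axis linear from 0 to 1 and logarithmic above) on 16 genes of the acute LPS response, 4 libraries per group, with Tnf under its more covered identifier. Apart from Tnfaip3 and Tnfaip6, no gene exceeds 17 reads in an injection library, and orange and red points (LPS) lie among the gray and blue ones (no LPS).

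The receptors of these ligands that reached 0.5 FPKM did not pass the test by LPS history. With limma-trend over the 8 libraries with LPS and the 8 without, the difference of Il1r1, the signaling IL-1 receptor, was -0.26 on the log2(FPKM + 0.1) scale, as for all differences below (95% interval -0.83 to 0.30), and that of its partner Il1rap was -0.05 (-0.26 to 0.17). Il6r differed by 0.07 (-0.33 to 0.47) and Il6st by -0.01 (-0.17 to 0.16). The TNF receptors Tnfrsf1a and Tnfrsf1b differed by -0.04 (-0.28 to 0.20) and 0.10 (-0.46 to 0.66). The IL-10 receptor chains Il10ra and Il10rb, both at measurable levels although their ligand had no reads, differed by 0.14 (-0.14 to 0.41) and 0.08 (-0.16 to 0.32). The decoy receptor Il1r2 and the chemokine receptor Cxcr3 were below 0.5 FPKM.

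Over both heroin arms, no expressed member was called by LPS history. A gene was called at an unadjusted p of at most 0.05 and a change of at least 1.3-fold, and by limma-trend 266 of 15118 genes met this, 1.76% of those tested. The count was 0 of 61 members, and 0 of 61 also had an unadjusted p under 0.05 by limma-trend, next to 6.66% of all genes. On the recovered reads, limma-voom called 0 members as well. The lowest p was that of Tnfrsf19 (limma adjusted p = 0.771, exact permutation p = 0.0837), a TNF receptor family member, singled out after its values were seen, which had 6.07 to 8.79 FPKM with LPS (median 7.89) and 5.48 to 7.92 without (median 6.94). Differences of the 61 ran from -0.40 for Cxcr4 to 0.43 for Ccl17 on the log2 scale, with a median of -0.02, and the median over all genes was 0.00. They were positive in 29 and negative in 32 members. In 18 members the 95% interval lay within a 1.3-fold change either way, in 34 within 1.5-fold and in 52 within 2-fold. The other 9 had wider intervals, so that a change of 2-fold was not excluded for them at this depth and spread.

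Intervals of the highest members were mostly narrow. Tnfaip1 differed by 0.02 log2 (-0.07 to 0.12), Tnfrsf21 by 0.03 (-0.14 to 0.20) and Ccl27 by 0.12 (-0.02 to 0.27). Il34 had 32.1 ± 3.91 FPKM with LPS and 30.7 ± 3.39 without (SD, n = 8 each), a difference of 0.06 (-0.11 to 0.23). Cxcl14 differed by -0.11 (-0.41 to 0.20), Il11ra1 by -0.09 (-0.28 to 0.11) and Il18bp by -0.07 (-0.29 to 0.14). Cxcl12 differed by 0.16 (-0.04 to 0.35) and Il17d by 0.17 (-0.04 to 0.37). By role, the medians were 0.12 log2 for 9 chemokine ligands, -0.06 for 10 interleukin ligands, -0.04 for 15 interleukin receptors, 0.00 for 8 TNF receptors and 0.06 for 8 TNF-induced proteins. No member had LPS and no-LPS libraries apart in both arms in the same direction, which held for 0.0595% of all genes.

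**Figure D3:**
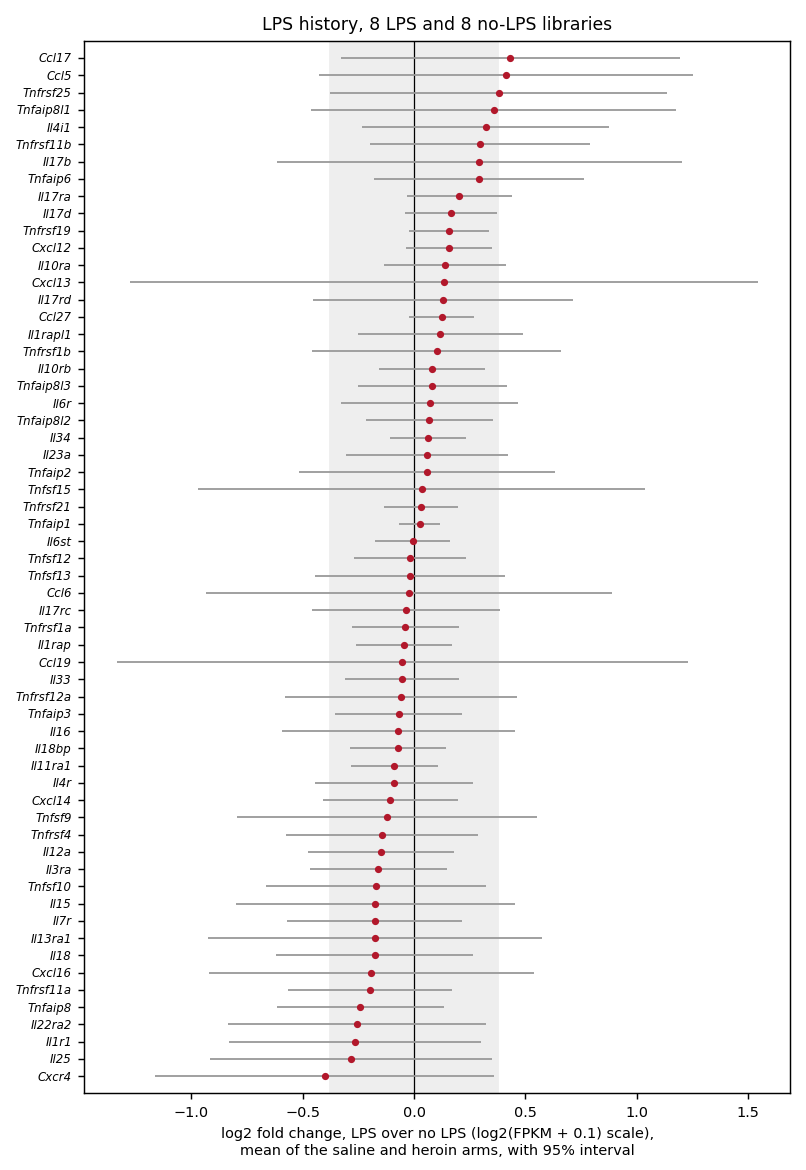
Log2 fold change by LPS history of 60 of the 61 members (points, mean of the saline and heroin arms, 8 libraries against 8) with 95% intervals from limma-trend; the gray band spans a 1.3-fold change either way. Each interval includes 0, and the points run from -0.40 (Cxcr4) to 0.43 (Ccl17).

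Within the saline arm (LPS-Saline against Saline-Saline), 2 of 61 members were called, 3.28%, next to 2.39% of all genes. Ccl17 (ENSRNOG00000016278, chr19:10619220-10620671 in the table's coordinates), a chemokine of Th2 cells, had 0.661, 0.936, 0.984 and 0.967 FPKM in Saline-Saline and 2.65, 1.22, 2.47 and 1.29 FPKM in LPS-Saline. All 4 LPS-Saline rats were above the controls, on 5 to 11 reads against 3 to 4. The log2 fold change was 0.96 ± 0.30 (SE, limma adjusted p = 0.687, exact permutation p = 0.0286), and limma-voom on the reads gave 0.93 and missed the p limit. Il22ra2 (ENSRNOG00000012259, chr1:15093599-15106954 in the table's coordinates), a soluble decoy that binds IL-22, had 0.545, 0.501, 1.02 and 0.843 FPKM in Saline-Saline and 0.190, 0.303, 0.432 and 0.203 FPKM in LPS-Saline. The groups did not overlap, with 19 to 37 reads against 7 to 14, and the log2 fold change was -1.11 ± 0.38 (SE, limma adjusted p = 0.708, exact permutation p = 0.0286). This call was lost without Saline-Saline replicate 3 (-0.95) or replicate 4 (-1.03). Il4i1, an amino acid oxidase that IL-4 induces, had groups apart without a call and was named for that after its values were seen, at 0.209 to 0.444 FPKM in Saline-Saline and 0.485 to 0.750 in LPS-Saline (0.61 log2, limma adjusted p = 0.762, exact permutation p = 0.0286). Groups of 4 were apart in 4.12% of all genes. The count of 2 became 4 without Saline-Saline replicate 2 or without LPS-Saline replicate 2, and the share of all genes in those fits is not given here. Cortical glutamatergic markers summed to 111 to 380 FPKM in LPS-Saline and 89.7 to 272 in Saline-Saline, and their part in these differences was not tested.

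Within the heroin arm (LPS-Heroin against Saline-Heroin), 1 of 61 members was called, 1.64%, next to 2.16% of all genes. Tnfaip6 (ENSRNOG00000050792, chr3:37545238-37564699) had 1.29, 1.79, 1.70 and 1.97 FPKM in Saline-Heroin and 3.34, 2.15, 3.23 and 2.05 FPKM in LPS-Heroin. All 4 LPS-Heroin rats were above the Saline-Heroin rats, and the log2 fold change was 0.63 ± 0.22 (SE, limma adjusted p = 1.00, exact permutation p = 0.0286). The gene is one of the 16 of the LPS response. In the saline arm it differed by -0.04 ± 0.36, with 1.36 to 3.19 FPKM in LPS-Saline inside the 1.20 to 3.58 of Saline-Saline. The call was lost without Saline-Heroin replicate 1 (0.51), LPS-Heroin replicate 1 (0.51) or LPS-Heroin replicate 3 (0.53). Groups of 4 were apart in 2.37% of all genes, and among members only in Tnfaip6.

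The arms share no library. Of the 61 members, 35 had the same sign in both, 57.4%, and 53.9% of all genes did. Across the 61 genes, which are not independent replicates, the fold changes of the arms were related with r = -0.08 (Pearson) and rho = 0.18 (Spearman). The 3 genes called in either arm lay near 0 or on the opposite side in the other. Ccl17 differed by -0.09 ± 0.61 in the heroin arm and Il22ra2 by 0.60 ± 0.42.

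**Figure D4:**
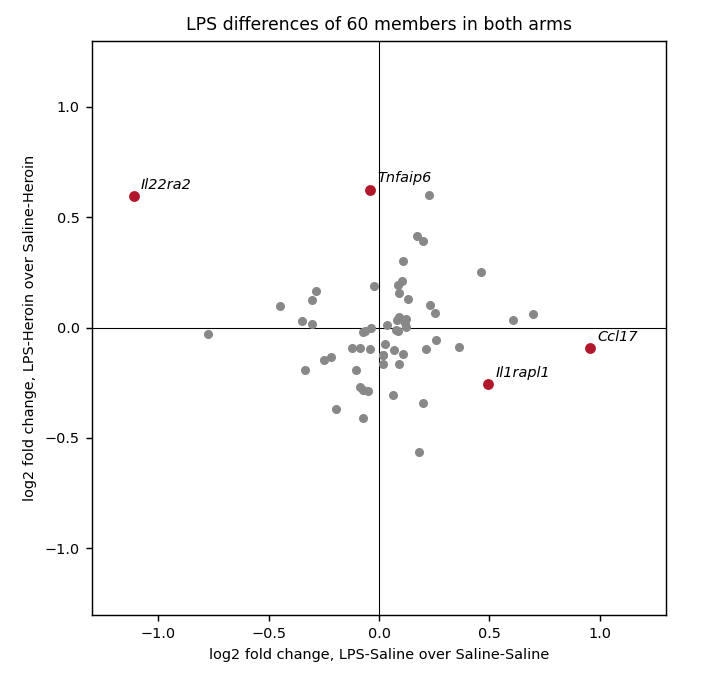
Each point is a member, 60 of the 61 in all, placed by its log2 fold change with LPS in the saline arm (x) and in the heroin arm (y). The 4 members called in an arm or in the interaction are named in red: Ccl17 and Tnfaip6 lie near an axis, and Il22ra2 and Il1rapl1 have opposite signs in the arms.

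The LPS by heroin interaction asked whether the LPS difference itself differed between the arms, and called 2 of 61 members, 3.28%, next to 2.35% of all genes. For Il22ra2 it was 1.71 ± 0.54 log2 (SE, limma adjusted p = 0.993). Saline-Heroin rats had 0.275, 0.674, 0.448 and 0.163 FPKM and LPS-Heroin rats 0.561, 0.509, 0.794 and 0.507, so that levels were lowest in LPS-Saline and Saline-Heroin. Il1rapl1 (ENSRNOG00000029663, chrX:55439578-56765893 in the table's coordinates), a synaptic adhesion protein related to IL-1 receptors, had an interaction of -0.75 ± 0.35 (SE, limma adjusted p = 0.993). It had 1.69, 1.40, 2.05 and 1.76 FPKM in Saline-Saline and 3.45, 1.95, 1.86 and 2.89 in LPS-Saline, then 2.49, 2.05, 2.72 and 2.11 in Saline-Heroin and 2.47, 2.26, 1.11 and 2.20 in LPS-Heroin. These groups overlapped. The Il1rapl1 call was lost in 9 of the 16 fits that left out a library, at -0.50 (without LPS-Heroin replicate 3) to -0.80 (without Saline-Heroin replicate 4) log2. It was also lost with a minimum of 1 FPKM and with no minimum, where the fold stayed at -0.75 and the p limit was missed. The libraries concerned were Saline-Saline replicates 1, 2 and 4, LPS-Saline replicates 1 and 4, Saline-Heroin replicates 1, 3 and 4 and LPS-Heroin replicate 3.

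Heroin injections, taken over both LPS arms, called 3 of 61 members, 4.92%, next to 2.45% of all genes. Tnfrsf4 (OX40, ENSRNOG00000020106, chr5:173447784-173450474), a costimulatory receptor of T cells, was lower with heroin. It had 2.01, 1.56, 1.30 and 1.21 FPKM in Saline-Saline and 1.00, 1.09, 1.60 and 1.14 in LPS-Saline. It had 1.23, 0.492, 0.650 and 0.882 in Saline-Heroin and 1.05, 0.836, 0.838 and 0.4995 in LPS-Heroin. The log2 fold change was -0.71 ± 0.20 (SE, limma adjusted p = 0.546, exact permutation p = 0.00163) on 8 to 33 reads per library, and the call was kept without any single one of the 16 libraries. The 8 heroin libraries (0.492 to 1.23) and the 8 others (1.00 to 2.01) overlapped in part.

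Tnfsf10 (TRAIL), a ligand that can trigger cell death, was lower with heroin as well, at 0.342 to 0.509 FPKM in Saline-Heroin and 0.207 to 0.487 in LPS-Heroin against 0.498 to 0.775 in Saline-Saline and 0.388 to 1.04 in LPS-Saline. The difference was -0.60 ± 0.23 log2 (SE, limma adjusted p = 0.578, exact permutation p = 0.00490). It fell below the fold limit with a pseudocount of 1 (-0.24) and missed the p limit without LPS-Saline replicate 4 (-0.49). Il4r, the IL-4 receptor, was higher with heroin, at 2.84 to 6.16 FPKM in Saline-Heroin and 2.95 to 6.53 in LPS-Heroin against 2.84 to 4.06 in Saline-Saline and 2.46 to 2.93 in LPS-Saline. The difference was 0.50 ± 0.17 log2 (SE, limma adjusted p = 0.548, exact permutation p = 0.0184), kept without any single library. In the self-administration experiment Il4r differed in the opposite direction, at 2.46 to 3.14 FPKM in Heroin-SA and 3.42 to 3.86 in Saline-SA (-0.34 ± 0.13 log2, limma adjusted p = 0.398, exact permutation p = 0.0286), under the fold limit, and the difference between the experiments was not tested. The count of 3 became 5 without Saline-Saline replicate 2 or without Saline-Heroin replicate 1, and the share of all genes in those fits is not given here. Cortical glutamatergic markers summed to 152 to 428 FPKM in Saline-Heroin and 350 to 440 in LPS-Heroin. They summed to 89.7 to 272 in Saline-Saline and 111 to 380 in LPS-Saline, and their part in the heroin differences was not tested.

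LPS-Heroin rats compared with Saline-Saline rats differed in both treatments, and this comparison shares its libraries with those above. It called 3 of 61 members, 4.92%, next to 5.46% of all genes, and each of the 3 was lower, as were 2.48% of all genes. Tnfrsf4 differed by -0.85 ± 0.27 log2 (SE, limma adjusted p = 0.300, exact permutation p = 0.0286), and its groups, given above, did not overlap. Il3ra, the IL-3 receptor, had 13.7, 11.998, 9.74 and 11.8 FPKM in Saline-Saline and 10.4, 7.39, 10.5 and 6.56 in LPS-Heroin (-0.45 ± 0.17, SE, limma adjusted p = 0.375, exact permutation p = 0.0857). Its groups overlapped, it overlaps Asmtl on the other strand, and the call was lost in 5 of 8 fits without a library (Saline-Saline replicates 1, 2 and 4, LPS-Heroin replicates 2 and 4, at -0.33 to -0.45). Tnfaip8, which regulates cell death, had 2.80, 1.97, 1.64 and 1.81 FPKM in Saline-Saline and 1.16, 1.21, 1.53 and 1.71 in LPS-Heroin (-0.51 ± 0.22, SE, limma adjusted p = 0.433, exact permutation p = 0.0571). It overlapped too, and was lost in 6 of 8 (Saline-Saline replicates 1, 2 and 4, LPS-Heroin replicates 1, 2 and 3, at -0.36 to -0.56). Tnfsf10 had groups apart, at -0.77 log2, but missed the p limit (limma adjusted p = 0.451, exact permutation p = 0.0286). Groups of 4 were apart in 6.86% of all genes. The count ran from 1, without Saline-Saline replicate 1 or 4, to 5, without Saline-Saline replicate 3 or LPS-Heroin replicate 1. For those fits the share of all genes is not given here. Cortical glutamatergic markers, 6 listed symbols all above 0.5 FPKM, summed to 350 to 440 FPKM in LPS-Heroin and 89.7 to 272 in Saline-Saline, and their part in these differences was not tested.

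Self-administered heroin (Heroin-SA against Saline-SA) called 5 of 61 members, 8.20%, next to 5.43% of all genes. Of the 5, 3 were higher and 2 lower, and of all genes 3.06% were higher and 2.37% lower. Il1rap (ENSRNOG00000001928, chr11:77463954-77593207), the accessory chain of the IL-1 and IL-33 receptors, had 4.36, 4.25, 3.09 and 2.39 FPKM in Saline-SA and 4.76, 5.31, 4.54 and 6.15 in Heroin-SA. The groups did not overlap, and the log2 fold change was 0.58 ± 0.21 (SE, limma adjusted p = 0.372, exact permutation p = 0.0286). Its lowest values were those of Saline-SA replicates 3 and 4, the libraries with the most mitochondrial reads, and without both the difference was 0.25 and not called. Il1rapl1 had 0.507, 0.404, 0.539 and 0.521 FPKM in Saline-SA and 1.14, 0.861, 0.550 and 1.20 in Heroin-SA, again without overlap (0.76 ± 0.31, SE, limma adjusted p = 0.410, exact permutation p = 0.0286), and 0.86 and not called without replicates 3 and 4. Ccl17 had 1.23, 0.388, 0.258 and 0.471 FPKM in Saline-SA and 1.80, 1.47, 2.11 and 0.708 in Heroin-SA, on 1 to 8 reads (1.33 ± 0.47, SE, limma adjusted p = 0.369, exact permutation p = 0.0571), and 0.92 and not called without those 2 libraries.

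Single libraries also decided these calls. Cortical glutamatergic markers summed to 319, 305, 387 and 45.3 FPKM in Heroin-SA and to 250, 214, 52.0 and 186 in Saline-SA. The lowest sum was in Heroin-SA replicate 4, which had the highest level of Il1rap and of Il1rapl1 in its experiment, and the part of these markers was not tested. That of Il1rap was lost without Saline-SA replicate 3 (0.53) or Heroin-SA replicate 4 (0.49), and that of Ccl17 without Saline-SA replicate 3 (1.08), Heroin-SA replicate 1 (1.22) or Heroin-SA replicate 3 (1.15). The Il1rapl1 call was lost without Saline-SA replicate 1 or 2 or Heroin-SA replicate 1, 2 or 4, at 0.64 to 0.78.

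The lower members were both of the TNF receptor family. Tnfrsf12a, the receptor of the ligand Tnfsf12, had 3.36, 5.00, 5.07 and 3.72 FPKM in Saline-SA and 2.33, 3.51, 3.32 and 2.35 in Heroin-SA (-0.56 ± 0.20, SE, limma adjusted p = 0.378, exact permutation p = 0.0571). Tnfrsf11b (osteoprotegerin), a soluble decoy of RANKL and TRAIL, had 3.86, 4.72, 4.25 and 3.41 against 3.25, 3.62, 2.46 and 2.39 (-0.47 ± 0.18, SE, limma adjusted p = 0.393, exact permutation p = 0.0571). Both overlapped between groups. Either call was lost without Saline-SA replicate 2, Saline-SA replicate 3 or Heroin-SA replicate 4, that of Tnfrsf12a also without Heroin-SA replicate 1 and that of Tnfrsf11b also without Heroin-SA replicate 3, at -0.38 to -0.48. Without Saline-SA replicates 3 and 4 the 5 calls became 1, that of Tnfrsf11b. Without single libraries the count ran from 2, without Saline-SA replicate 3 or Heroin-SA replicate 1, to 9, without Saline-SA replicate 1. It was 3 without Saline-SA replicate 2 or Heroin-SA replicate 4. As the share of all genes in these fits is not given here, the counts cannot be read as a result about the members. Il22ra2, called in the LPS comparisons, had 0.590 to 0.844 FPKM in Saline-SA and 0.882 to 1.54 in Heroin-SA, apart but not called (0.63 ± 0.28, SE, limma adjusted p = 0.445, exact permutation p = 0.0286), and groups of 4 were apart in 6.76% of all genes.

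**Figure D5:**
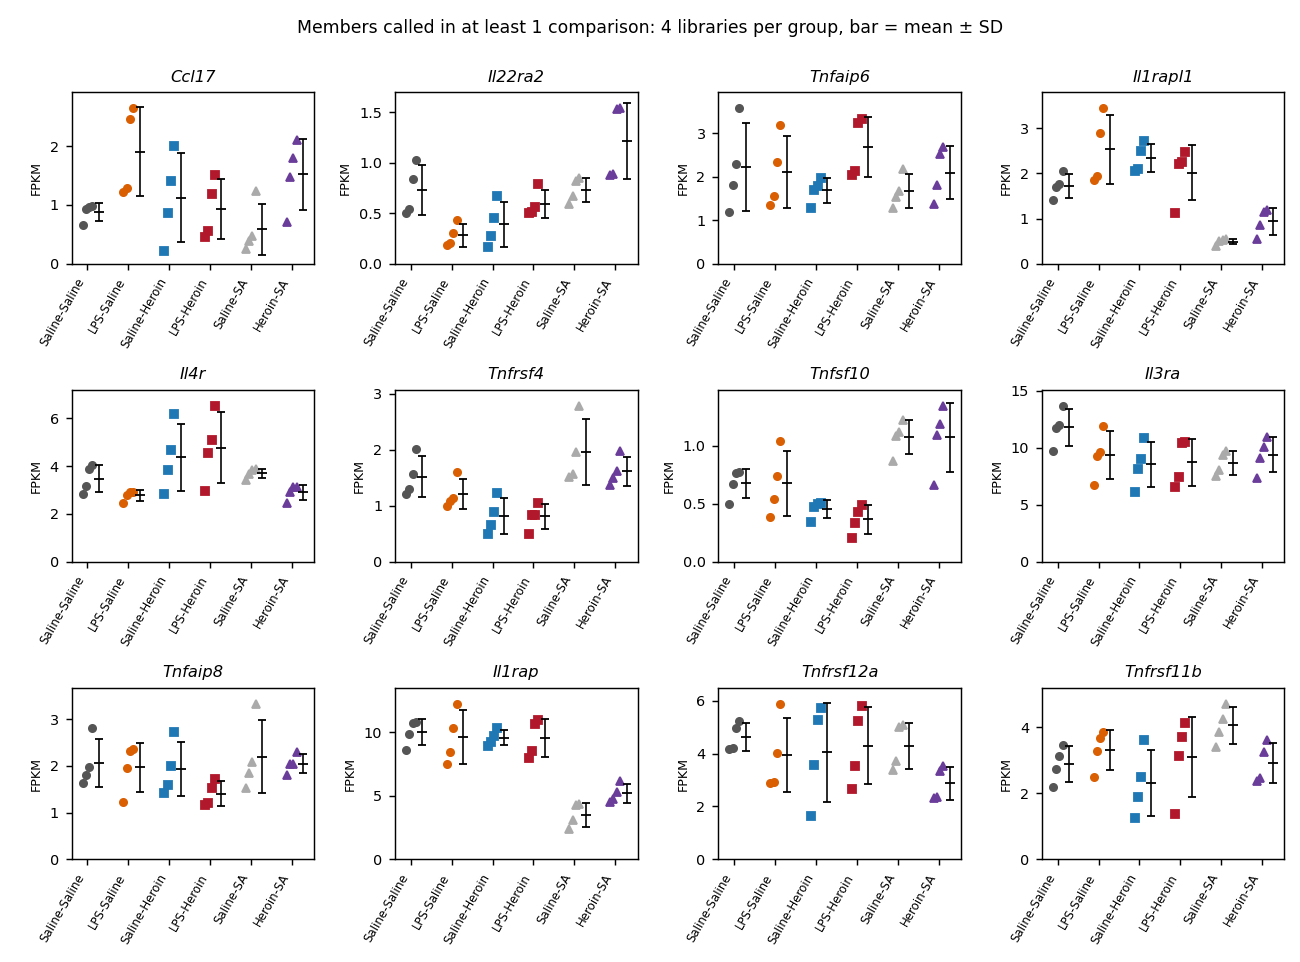
FPKM of the 12 members called in at least 1 comparison, 4 libraries per group as points, with the mean and SD as a bar; each axis starts at 0. Il22ra2 has its lowest group mean in LPS-Saline (0.190 to 0.432), Tnfrsf4 and Tnfsf10 are lower in both heroin injection groups, and Il1rap is lower in both self-administration groups than in every injection library.

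Between the experiments the levels of most members overlapped. The libraries of self-administration and injection were apart in 2 of 61, Il1rap and Cxcl12. Il1rap had 2.39 to 6.15 FPKM (median 4.45) in the 8 self-administration libraries and 7.51 to 12.3 (median 9.80) in the 16 injection libraries, 2.20 times as much by the medians. Cxcl12 had 12.9 to 17.7 (median 14.2) in self-administration and 7.53 to 12.9 (median 10.3) in injection, with the nearest libraries close together. Endothelial markers, 9 listed symbols all above 0.5 FPKM, summed to 92.3 to 122 FPKM in self-administration and 65.2 to 101 in injection. Mitochondrial reads made up 10.0% to 15.9% and 6.82% to 9.10%, apart in every library, and the part of either in these differences was not tested. Of all genes, 3.12% lay above and 4.07% below in every self-administration library. Il1rapl1 was 3.82 times higher by the medians in injection, and Tnfsf10 was 0.449 times the self-administration median. Surgery, housing and light cycle also differed between the experiments, and what each contributes cannot be told apart.

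Other genes of cytokine signaling were counted from 4 lists of general knowledge, which held 13 further ligands, 23 further receptors, 24 JAK, STAT and SOCS genes and 23 adaptors above 0.5 FPKM, 83 in all. By LPS history over both arms 3 were called, 3.61% next to 1.76% of all genes, of which 1 was higher and 2 lower. Cish, a feedback inhibitor of STAT5, was one of the lower, by -0.43 ± 0.19 (limma adjusted p = 0.733), and Tslp, an epithelial cytokine related to IL-7, was higher by 0.40 ± 0.18 (limma adjusted p = 0.746). Cish had 1.12 ± 0.274 FPKM in Saline-Saline and 0.620 ± 0.151 in LPS-Saline (SD, n = 4 each). It had 0.697 ± 0.242 in Saline-Heroin and 0.630 ± 0.108 in LPS-Heroin. Its call was made in the saline arm (-0.76 log2, limma adjusted p = 0.720) and not in the heroin arm. Of the 23 adaptors of IL-1 and TNF receptors, 0 were called over both arms, and 1 in the heroin arm, Myd88, at 2.42 ± 0.344 FPKM in LPS-Heroin and 3.33 ± 0.652 in Saline-Heroin (SD, n = 4 each; -0.44 ± 0.17 log2, SE, limma adjusted p = 1.00). Of all 83, the saline arm called 1 higher and 2 lower, 3.61% next to 2.39% of all genes, and the heroin arm 3 lower, 3.61% next to 2.16%. The interaction called 1 higher and 2 lower, 3.61% next to 2.35%. Heroin injections called 2 lower, 2.41% next to 2.45%, and LPS-Heroin against Saline-Saline 1 higher and 4 lower, 6.02% next to 5.46%. Heroin-SA against Saline-SA called 3 lower, 3.61% next to 5.43%.

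Of the 92 members below 0.5 FPKM that had reads, 5 met the limits by LPS history when the filter was left out, 5.43%, each of them lower with LPS. Of all 22782 genes then tested, 2.10% met them and 1.15% were lower. That set includes the 15118 genes above the minimum, of which 1.76% met the limits with the filter. A share for the low genes alone is not given, so the 5.43% has no like set beside it. The 5 members were Cxcl17, Cxcl10, Il20rb, Ccr1 and Il12rb1, chosen by that call. Their reads ran from 0 to 17 per library. Cxcl17, a mucosal chemokine, had 8, 5, 9 and 7 reads in Saline-Saline, 0, 7, 1 and 2 in LPS-Saline, 1, 3, 3 and 1 in Saline-Heroin and 1, 1, 0 and 3 in LPS-Heroin (-0.99 log2, limma adjusted p = 0.734). Its reads summed to 29 in Saline-Saline and to 5 to 10 in the other injection groups, and the groups overlapped. With the filter, no gene of the table had a limma adjusted p under 0.05 in any of the 7 comparisons.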

How the data were processed

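The deposited table held FPKM values that the authors computed per gene. Per the labels and the submitters' processing notes, reads were trimmed with fastp, aligned to build rn6 with HISAT2 and counted with featureCounts, with versions and the strand setting of the counting not given in the sources used here, while the libraries were directional by the study's methods. Whole reads were recovered from the FPKM steps for 100% of nonzero values (tolerance 0.01 reads), 12312878 to 18850240 per library, and 3 reads were taken as the counting floor. Columns of other samples numbered 0.

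Genes with a mean of at least 0.5 FPKM over all 24 libraries (15118) were tested on log2(FPKM + 0.1) with limma-trend (limma 3.58.1, R 4.3.3), whose fold changes understate those of low genes. The injection arms were fitted in pairs of groups, the LPS, heroin and interaction terms over the 16 injection libraries, and p-values were adjusted by Benjamini-Hochberg over all genes tested. A gene was called at an unadjusted p of at most 0.05 and a change of at least 1.3-fold. Named were every called member, the 10 highest, the 3 just above and just below the minimum, 16 LPS-response genes with their receptors, members apart in both LPS arms in the same direction, and pathway genes called by LPS history; other named genes were chosen after their values were seen. The members and lists were chosen with earlier results of these data known. The exact permutation test was used for the LPS-response genes (4900 arrangements, smallest possible p 0.000408). With 4 rats against 4, an exact p cannot fall below 0.0286. Gene coordinates are those of the table, whose build per the submitters is rn6. Alternatives changed the pseudocount, filter, scaling, model, block and libraries, and the code was tested on simulated data. Promoters came from RefSeq (GRCr8), whose coordinates are not those of rn6. Libraries of 1 group differed by more than counting noise, the closest pair at a chi-square of 7.26 per degree of freedom. Some genes, 1 expressed member among them, are counted in the totals and not reported here by name.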

Additional observations from a re-analysis of the deposited data

Results flagged for a closer look

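The gap of the highest or lowest library to its nearest neighbor was compared with the range of its group, for 22 genes in 6 groups (132 groups of 4), where chance alone marks about 1 in 20. Of these, 3 groups had a library apart, and 6.6 would be met by chance. Ccl17 was 0.661 FPKM in Saline-Saline replicate 1, and the median of the others was 0.967. Il34 was 28.9 FPKM in LPS-Heroin replicate 3, with 34.1 for the others, and Cxcl12 was 15.1 FPKM in Saline-SA replicate 3, with 13.2 for the others.

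The LPS difference of 2 members differed between the saline and the heroin arm by the interaction term. It was 1.71 log2 for Il22ra2 (limma adjusted p = 0.993), lower with LPS in the saline arm and higher in the heroin arm, and -0.75 for Il1rapl1 (limma adjusted p = 0.993), the other way round. Neither passed the adjustment over all genes.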

How the results depend on the processing

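No called difference changed its direction under any alternative. All 16 called differences of the 12 members remained called with a pseudocount of 0.01 and with quantile normalization, and 12 remained with a pseudocount of 1 or with all 24 libraries in 1 fit. With no fold limit the p-values are the same, so no call could be lost. Without a filter (153 members tested) the counts of called members were 5 for LPS history, 7 for LPS-Saline against Saline-Saline, 3 for LPS-Heroin against Saline-Heroin, 4 for the interaction, 11 for heroin injections, 10 for LPS-Heroin against Saline-Saline and 11 for Heroin-SA against Saline-SA. Members below 0.5 FPKM made up 5, 4, 2, 3, 8, 6 and 5 of these, in the same order. Of all 22782 genes tested without a filter, 2.10% were called by LPS history. Such a share is not given here for the other comparisons, so their counts without a filter cannot be read as a result about the members. Expressed members changed too: Il4i1 was added in LPS-Saline, Tnfsf10 in LPS-Heroin against Saline-Saline and Il22ra2 in Heroin-SA, and Il1rapl1 was lost in the interaction. With a mean of at least 1 FPKM (44 tested) the LPS-Saline count was 1 and that of the interaction 0. The LPS-Saline count was also 1 with all 24 libraries in 1 fit, with limma-voom and with at least 10 mean reads (55 tested, chosen after seeing the data). LPS-Heroin against Saline-Saline had 5 with limma-voom, with at least 10 reads and with no fold limit. Heroin-SA against Saline-SA had 3 with a pseudocount of 1 and 1 without Saline-SA replicates 3 and 4 (chosen after seeing the data). Shares of all genes under these other settings are not given here either, so their counts cannot be read as a result about the members. The causes of the changes after those without a filter were not tested.

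Without single libraries the counts ran from 0 to 1 for LPS history (1 without LPS-Heroin replicate 4), 2 to 4 for LPS-Saline, 0 to 2 for LPS-Heroin against Saline-Heroin (2 without Saline-Heroin replicate 4), 1 to 2 for the interaction, 3 to 5 for heroin injections, 1 to 5 for LPS-Heroin against Saline-Saline, 2 to 9 for Heroin-SA and 0 to 3 for the LPS-response genes (3 without Saline-Heroin replicate 1). Libraries share only a replicate number across groups. Same-numbered libraries correlated at -0.150 to 0.154 (injection) and -0.0656 to 0.0485 (self-administration), and 5 of 16 and 1 of 8 correlated best with their own number. With the replicate block, LPS-Heroin against Saline-Heroin had 0 called members, while LPS history had 0, LPS-Saline against Saline-Saline 2, the interaction 2, heroin injections 4, LPS-Heroin against Saline-Saline 3 and Heroin-SA against Saline-SA 4. Shares of all genes are not given here for fits without a library or with the replicate block. These counts therefore cannot be read as a result about the members. Fits without a library aside, the largest shift of the median of all genes under an alternative was 0.03 log2. Depth limits the 6 expressed members with a mean under 10 reads and nearly all of the LPS-response list.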
